A study of Mus musculus with 20 samples.

Results

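The testis of 14-day-old mice was compared with that of 10-day-old mice on 4 arrays, 2 per age, out of the 20 arrays of a time course that sampled 10 ages from birth (day 0) to day 35. The arrays were taken by their titles, and the rest of the series entered the same model to estimate the spread of each gene. All groups were untreated whole mouse testis as far as the labels say, from which total RNA was extracted with Trizol, amplified from the 3' end and labelled with biotin. Strain, genotype and the number of animals behind an RNA are not given in the sources used here, so the p-values below measure the spread between these samples, which may be technical. Each array gave 1 intensity, on a linear scale, for each of 45101 probe sets, and 16429 genes were tested.

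In the juvenile mouse the first wave of spermatogenesis advances almost in step, so that each age adds the next germ cell stage to those already present. Around the ages compared here, spermatocytes pass through zygotene, when homologous chromosomes pair along a forming synaptonemal complex, and enter pachytene, when crossovers mature and the X and Y chromosomes are silenced in a separate nuclear domain. Pachytene is also known for the onset of transcription of many genes whose products serve much later, in the acrosome and tail of the sperm. Whole testis was measured, and the mean intensity after leaving out extreme values was 125 on every array. Values are therefore relative to the other RNA on the same array. A lower value cannot be told apart between fewer cells of a type, less RNA per cell and a larger share of RNA from other cells. The same holds, in reverse, for a higher value.

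The 4 arrays were alike in their technical values. Array medians lay between 30.7 and 31.8, and the median intensity of the bacterial control probe sets between 1.21 and 1.43. The ratio of the 3' to the 5' probe set lay between 1.58 and 1.76 for actin and between 0.750 and 0.767 for Gapdh. The arrays of 1 age correlated, across genes on the log2 scale, with r = 0.982 on day 10 and r = 0.983 on day 14. Differences below are day 14 minus day 10 on the scale log2(intensity + 7.83), with the standard error (SE) from a limma fit over all 20 arrays, and the constant 7.83 is the pooled 20th percentile of intensity. A gene was called higher or lower when its Benjamini-Hochberg adjusted p was under 0.05 and its log2 difference at least 1 in size, that is 2-fold.

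By calls, the testis of day 14 differed from that of day 10 mostly by rises, on values that are relative within each array. Of 16429 genes, 657 were called higher (4.0%) and 105 lower (0.639%), so that 86.2% of the calls were higher. Rises were also larger: 213 genes rose by at least 2 on the log2 scale, 84 by at least 3 and 32 by at least 4, against 2 genes that fell by at least 2. The median rise among called genes was 1.58 and the median fall -1.23, while the median over all genes was -0.04. In 656 of the 657 called rises and in all 105 called falls the arrays of the 2 ages did not overlap, as was true of 59.3% of all genes tested. With no minimum size, 1530 genes were higher (9.31%) and 1027 lower (6.25%) at an adjusted p under 0.05, so the excess of rises lay in the large differences. Without day 10 replicate 1 the number of called falls was 68.

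**Figure D1:**
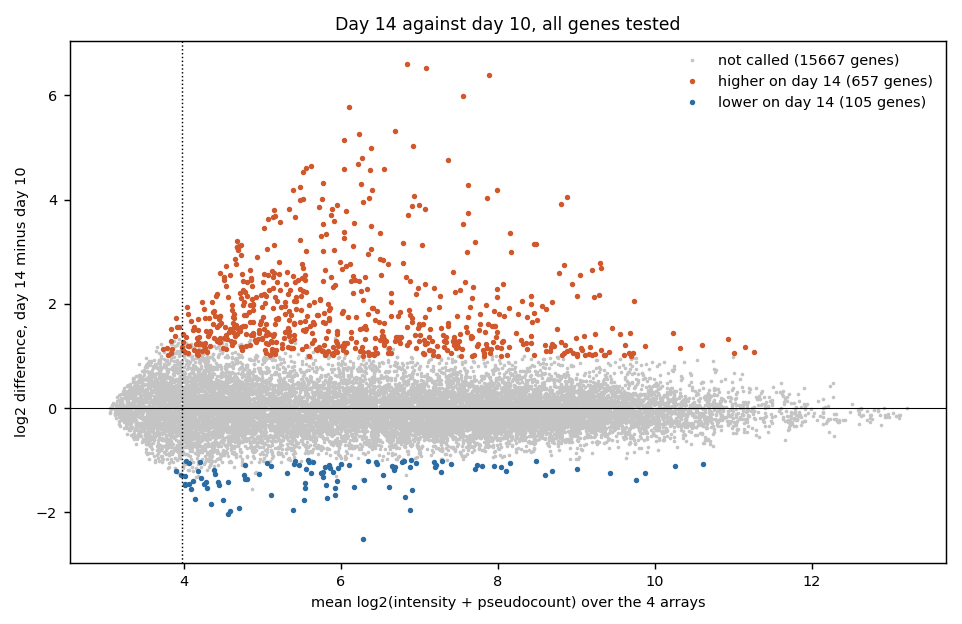
Log2 difference (day 14 minus day 10) of each of the 16429 genes tested against its mean log2(intensity + 7.83) over the 4 arrays, with called rises in orange and called falls in blue. The dotted line marks an intensity equal to the added constant. The 657 rises reach 6.59 at low to middle mean intensity, while 2 of the 105 falls pass -2.

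Most called rises had their highest mean at a later age. Of the 657 genes, 36 had their highest mean of the 10 ages on day 14, 67 on day 18, 209 on day 20 and 336 on day 30 or 35. The shares of all genes tested that peak at these ages are not given here. The lowest values also rise late. The median bacterial control was 1.21 to 1.43 on days 10 and 14 and 5.40 to 10.96 from day 18. Its part in these peaks was not tested. From day 14 to 18, 443 of the 657 were called higher again, against 2239 of all 16429 genes. The median intensity of the 657 genes was 20.7 on day 10 and 117 on day 14. In 164 of them the day 10 mean lay below the added constant of 7.83. For those genes the size of the log2 difference depends on that constant, and no fold is given.

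The largest rises were in genes near background on day 10. Spata4, a testis gene named for its link to spermatogenesis, read 1.13 and 7.26 on the day 10 arrays and 1197 and 1037 on the day 14 arrays, a log2 difference of 6.59 ± 0.22 (SE, adjusted p = 4.86e-14). Pdcl2, a phosducin-like protein of germ cells, read 4.10 and 8.92 on day 10 and 1380 and 1205 on day 14 (6.52 ± 0.21, adjusted p = 3.20e-14). Ldhc, the lactate dehydrogenase of germ cells, read 14.5 and 21.7 and then 2491 and 1861 (6.39 ± 0.22, adjusted p = 5.955e-14). All 3 lay below the array median on both day 10 arrays and far above it on both day 14 arrays. A separate probe set of Ldhc gave 6.92. Fabp9, a lipid-binding protein of the sperm head, read 20.9 and 11.4 on day 10 and 1541 and 1439 on day 14 (5.99 ± 0.21), with 2.37 from its other probe set. Ldhal6b, a retroposed lactate dehydrogenase, read 0.999 and 1.97 on day 10 and 589 and 428 on day 14 (5.78 ± 0.15).

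The other 10 of the 15 largest named rises ran from 4.52 to 5.32. Cers3, the ceramide synthase for very long fatty acids, rose by 5.32 ± 0.22. Crisp2, a sperm protein of the acrosome and tail, rose by 5.14 ± 0.28. Adam2, a subunit of fertilin on the sperm surface, rose by 4.99 ± 0.34, and Dkkl1, an acrosomal protein, by 4.67 ± 0.41. Zmynd10, which is needed to assemble the dynein arms of motile cilia, rose by 4.64 ± 0.19 and Morn5 by 4.59 ± 0.20. Cetn1, a centrin of the basal body, rose by 4.58 ± 0.33, with 1.87 from its other probe set. Gk2, a glycerol kinase, rose by 4.57 ± 0.16, Rbakdn by 4.61 ± 0.19, and Morc2b, a MORC ATPase of spermatocytes, by 4.52 ± 0.25. Several of these genes are known from sperm structures and energy supply.

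**Figure D2:**
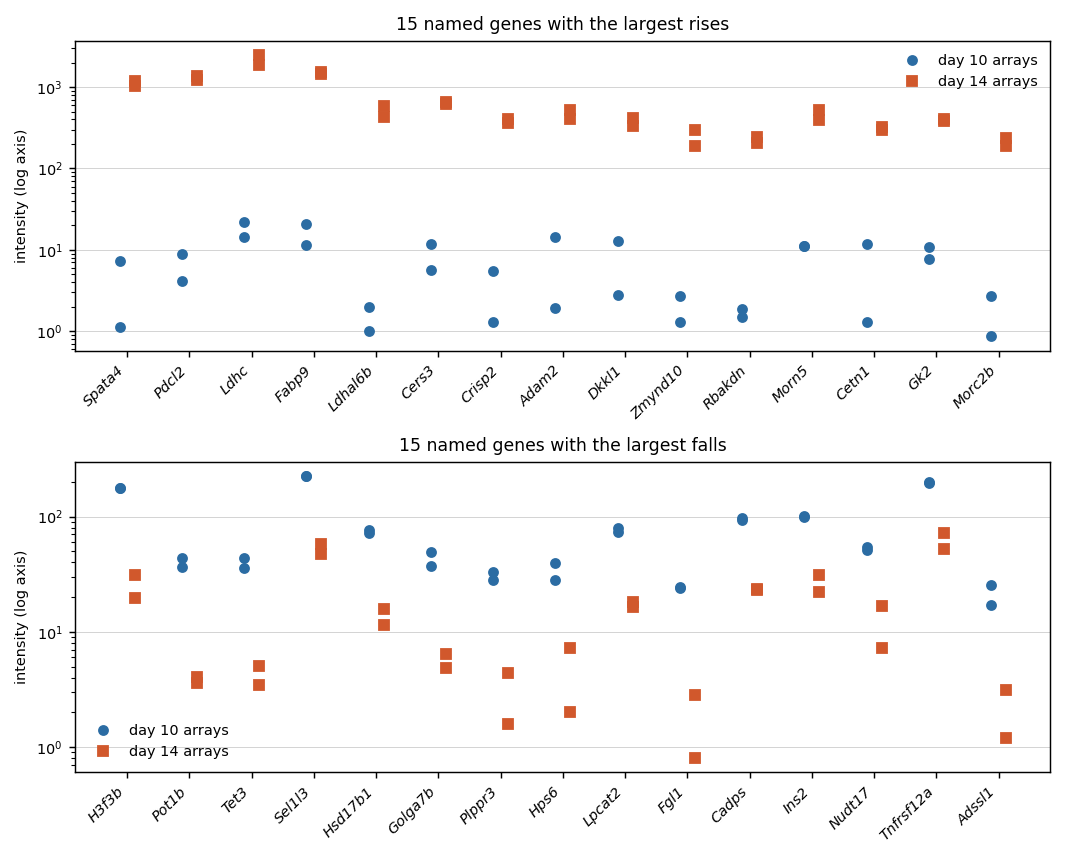
Intensity on each day 10 array (blue circles) and each day 14 array (orange squares), on a log axis, for the 15 named genes with the largest rises (top) and the 15 with the largest falls (bottom). The rises start between 0.863 and 21.7 and reach 191 to 2491, while the falls start between 17.2 and 224 and end between 0.806 and 72.4.

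Promoter windows are shown for the 4 largest named rises in the promoter table, since these genes moved together from background. Each window runs 5' to 3' from 250 bases before to 50 bases after the RefSeq start of the gene (build GRCm38.p6). Capitals mark, on either strand, the RFX motif GTTGCC, the MYB cores AACTG and AACGG, and the CREB/CREM core TGACG, whose factor families include genes called higher here (Rfx4 and Rfx2, Mybl1, Crem). Neighbouring capitals can belong to overlapping motifs.
Spata4 (chr8:54600531-54600830, plus strand): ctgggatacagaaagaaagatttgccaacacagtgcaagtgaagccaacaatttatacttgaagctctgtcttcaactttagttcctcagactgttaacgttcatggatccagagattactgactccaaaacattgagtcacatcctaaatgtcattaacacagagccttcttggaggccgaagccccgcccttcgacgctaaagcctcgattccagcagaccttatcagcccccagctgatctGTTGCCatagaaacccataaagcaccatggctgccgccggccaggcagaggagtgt
Pdcl2 (chr5:76331107-76331406, minus strand): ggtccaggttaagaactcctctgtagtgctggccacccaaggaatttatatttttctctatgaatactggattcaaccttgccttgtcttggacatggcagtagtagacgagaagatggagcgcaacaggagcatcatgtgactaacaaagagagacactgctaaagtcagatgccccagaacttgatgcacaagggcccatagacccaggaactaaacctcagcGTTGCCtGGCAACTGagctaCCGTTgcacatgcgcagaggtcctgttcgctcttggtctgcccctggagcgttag
Ldhc (chr7:46861013-46861312, plus strand): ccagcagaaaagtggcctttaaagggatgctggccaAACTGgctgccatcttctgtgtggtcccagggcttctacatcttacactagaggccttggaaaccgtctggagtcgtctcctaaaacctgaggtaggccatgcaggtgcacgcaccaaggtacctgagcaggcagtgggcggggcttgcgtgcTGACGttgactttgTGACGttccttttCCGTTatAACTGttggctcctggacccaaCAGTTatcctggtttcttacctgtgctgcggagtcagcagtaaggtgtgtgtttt
Ldhal6b (chr17:5418718-5419017, minus strand): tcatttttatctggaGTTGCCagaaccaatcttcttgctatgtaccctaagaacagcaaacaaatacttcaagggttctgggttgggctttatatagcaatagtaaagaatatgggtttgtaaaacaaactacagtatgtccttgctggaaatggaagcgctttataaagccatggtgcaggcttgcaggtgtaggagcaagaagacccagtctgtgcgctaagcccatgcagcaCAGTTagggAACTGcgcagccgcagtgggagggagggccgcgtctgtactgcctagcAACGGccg

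The Spata4 window held 1 RFX motif, which ends at the base before the start site, and no MYB or CREB core. The Pdcl2 window held 2 RFX motifs within 25 bases of the start, on opposite strands, with AACTG overlapping the second of them and AACGG nearby. The Ldhc window held 3 AACTG cores, 1 AACGG core and 2 TGACG cores. The table has a further Ldhc window that overlaps this one. The Ldhal6b window held 2 AACTG cores and 1 AACGG core near the start and 1 RFX motif at its far end.

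Over all called rises, the RFX motif and the AACGG core were more frequent than in the background of tested genes. Outside chromosome 18, which the promoter table does not cover, 524 of 634 called rises and 13056 of 15890 tested genes had a window. The RFX motif GTTGCC stood in 24.2% of the windows of called rises and in 13.1% of all tested genes, and in 12.7% of all 27025 windows of the table. The AACGG core stood in 34.4% against 22.1%, and the AACTG core in 47.1% against 39.6%. In all windows of the table these shares were 17.7% for AACGG and 44.8% for AACTG, so the AACTG excess depends on the background. In 80 windows of called falls the RFX motif stood in 8.75%, AACGG in 15% and AACTG in 36.2%. The other motifs lay closer to the background: the Stra8/Meiosin motif CNCCTCAG in 10.1% against 9.2%, the full CRE TGACGTCA in 2.67% against 2.80%, the CREB/CREM core in 26.9% against 28.3%, the E2F6-type site GCGGGAA in 7.63% against 7.43%, the E-box CACGTG in 10.5% against 9.42% and the TATA core TATAAA in 8.97% against 8.88%. Median GC content was 56.7% in the windows of called rises and 59.3% in those of tested genes. These shares are descriptions of letters in a window, with no test.

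The synaptonemal complex and its axis, the protein zipper that holds paired homologues together, had 5 of 10 tested members called higher and none lower. In this list all 10 differences were above 0, and their median was 1.07, against -0.04 for all genes. Hormad1, an axis protein that marks unsynapsed chromosomes, read 252 and 308 on day 10 and 916 and 1705 on day 14 (2.13 ± 0.33, adjusted p = 9.25e-05). Its day 14 arrays differed widely but both lay above both day 10 arrays. Sycp2, an axis protein, read 743 and 696 and then 2093 and 1851, a 2.74-fold rise (1.44 ± 0.09). Sycp1, the transverse filament that defines synapsis, read 1081 and 944 and then 2605 and 2119, or 2.33-fold (1.21 ± 0.13). Sycp3, the main axis component, read 1522 and 1497 and then 3372 and 3462, or 2.26-fold (1.17 ± 0.10). In each of these the arrays of the 2 ages were separate. Syce3, a central element protein, read 340 and 360 and then 827 and 745 (1.15 ± 0.12).

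The central element was not uniform. Syce2 read 1850 and 1802 on day 10 and 1838 and 1872 on day 14 (0.02 ± 0.07, adjusted p = 0.900), and Syce1 passed the p threshold at 0.51 ± 0.10 without reaching 2-fold. Hormad2 read 45.8 and 44.5 and then 119 and 80.2, a difference of 0.999 ± 0.45 that was not called (adjusted p = 0.162). Of the meiotic cohesins that build the axis, none of 3 tested was called: Stag3 differed by 0.48 ± 0.09, Smc1b by 0.27 ± 0.11 and Rec8 by -0.43 ± 0.31. Their mitotic counterparts and regulators had 0 of 13 called and a median of -0.21. Lists this short can hold no call at the shares of all genes tested, 4.0% higher and 0.639% lower.

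Spo11, the enzyme that cuts the DNA, was the single member of 7 tested double-strand break genes to be called, from 92.6 and 85.6 on day 10 to 333 and 308 on day 14 (1.76 ± 0.20, adjusted p = 2.16e-06). Its partner Rec114 went the other way, from 248 and 263 to 123 and 150 (-0.87 ± 0.18, adjusted p = 0.00151), short of the 2-fold limit. Mei1 (-0.57 ± 0.32) and Prdm9 (-0.08 ± 0.38), which places the breaks, were not called, and the median of the 7 was -0.33. Break formation genes therefore held both a rise and values below 0.

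Among 18 genes of strand exchange and recombination intermediates, 3 were called higher and 1 lower, with a median of 0.05. Meiob, which binds single-stranded DNA with SPATA22, read 71.1 and 53.5 on day 10 and 641 and 605 on day 14 (3.18 ± 0.27, adjusted p = 3.47e-08). Psmc3ip (HOP2), the partner of DMC1 in strand invasion, rose from 227 and 187 to 581 and 514 (1.38 ± 0.09). Fignl1 rose by 1.22 ± 0.10, while its other probe set gave 0.10. The helicase gene Helb fell by 1.27 (SE 0.40) at low intensity, and that call was lost without day 10 replicate 2 and without day 14 replicate 1. Dmc1 itself, the meiotic recombinase, read 310 and 309 on day 10 and 368 and 313 on day 14 (0.13 ± 0.19, adjusted p = 0.733). Its other probe set gave 0.77 ± 0.27 (adjusted p = 0.0906), so the size of the Dmc1 difference depends on the probe set.

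Of 8 tested crossover genes, 1 was called. Msh4, which stabilises crossover intermediates, read 32.3 and 45.02 on day 10 and 181 and 140 on day 14 (1.86 ± 0.39, adjusted p = 0.00210). Ccnb1ip1 (HEI10) differed by 0.74 ± 0.15 and Mlh3, a crossover resolvase subunit, by 0.68 ± 0.21, both past the p threshold and under 2-fold. Exo1 differed by -0.55 ± 0.15. Of 9 genes that tether telomeres to the nuclear envelope, Terb2 (1.06 ± 0.24) and Majin (1.06 ± 0.21), which form part of the tether itself, were called higher. Both calls were lost without day 14 replicate 1, Majin also without day 10 replicate 2 and Terb2 without day 10 replicate 1.

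**Figure D3:**
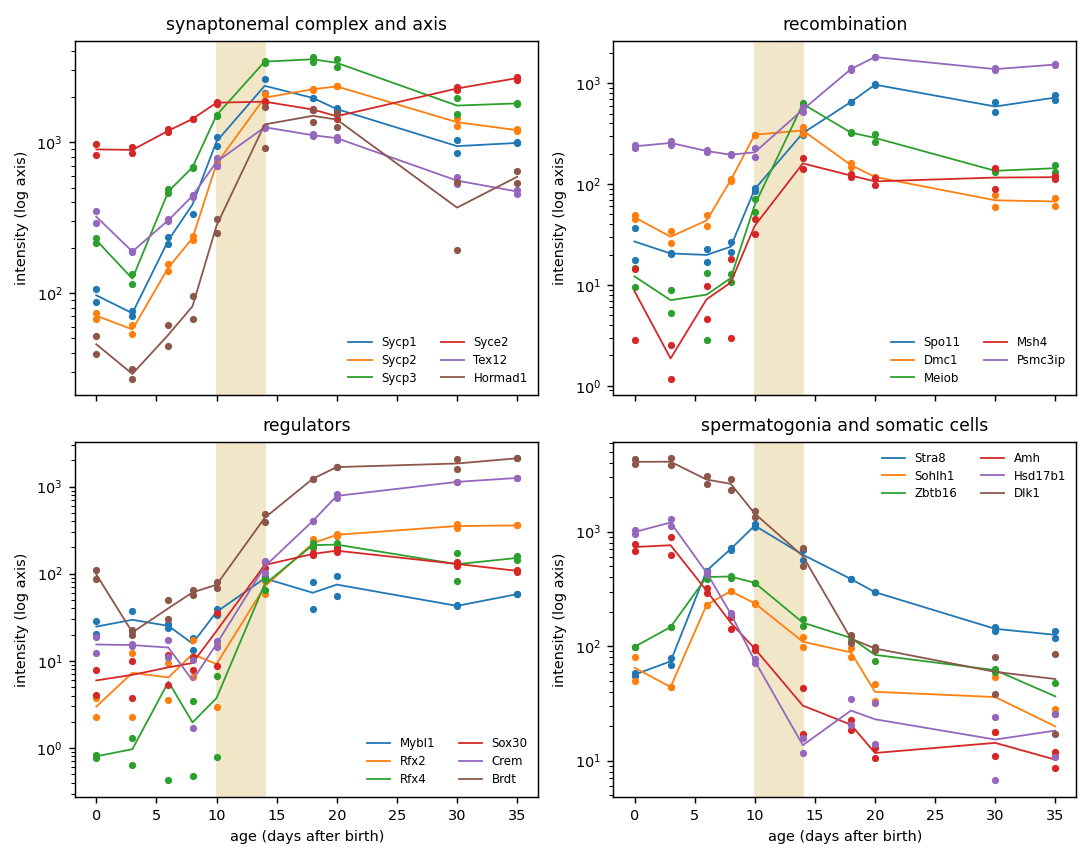
Intensity of each array (points, log axis) and the mean of the 2 arrays of an age (lines) for 23 genes over the 10 ages, with the interval from day 10 to day 14 shaded. Sycp1 and Meiob peak on day 14, Crem and Brdt keep climbing to day 35, and Stra8 peaks on day 10.

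Among known regulators of the pachytene programme, 7 of 21 tested were called higher and none lower, 13 differences were above 0 and 8 below, and the median was 0.37. Without day 10 replicate 1 that median was -0.02. Patz1 (-0.71 ± 0.14, adjusted p = 0.00105) and Taf7l (-0.57 ± 0.13, adjusted p = 0.00464) were lower past the p threshold, under 2-fold. Rfx4, an RFX-family transcription factor, read 6.70 and 0.782 on day 10 and 85.9 and 65.6 on day 14 (2.89 ± 0.39, adjusted p = 1.86e-05). Crem, the activator of spermatid genes, read 14.4 and 16.8 and then 139 and 103 (2.44 ± 0.24), and its 3 other probe sets gave 0.37 to 0.98. Brdt, the testis bromodomain protein, read 79.9 and 69.4 and then 484 and 389 (2.42 ± 0.17), with 0.81 and 1.34 from its other probe sets. For both genes every probe set lay above 0, with very different sizes.

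Sox30, which activates postmeiotic genes, read 35.3 and 8.76 on day 10 and 135 and 116 on day 14 (2.32 ± 0.36). Rfx2, a master regulator of ciliary genes in spermatids, read 15.4 and 2.93 and then 82.9 and 59.2 (2.30 ± 0.37), while its other probe sets gave 1.12 and -0.26 and the mean over all its probe sets was not called (0.79). Zfp541 rose by 1.31 ± 0.25. Mybl1 (A-MYB), the regulator of pachytene piRNA precursors, read 33.8 and 39.2 and then 90.8 and 86.0 (1.12 ± 0.32, adjusted p = 0.0213), and its call was lost when any 1 of the 4 arrays was left out, with differences of 1.03 to 1.21. Tcfl5, a bHLH factor of pachytene, differed by 0.85 ± 0.08 (adjusted p = 1.05e-07), below 2-fold.

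Genes listed as expressed in pachytene spermatocytes had 22 of 38 called higher and none lower, with a median of 1.23. Besides Spata4, Ldhc and Adam2, they include Ropn1l, a sperm tail protein, which went from 32.1 and 41.9 to 917 and 793 (4.27 ± 0.22). Meig1, whose protein is needed to build the sperm tail, went from 95.5 and 123 to 1947 and 1867, or 17.5-fold (4.04 ± 0.14). Hspa2, the chaperone of spermatocytes that is used as a pachytene marker, went from 164 and 178 to 1190 and 954, or 6.29-fold (2.59 ± 0.13). Of the members that were not called, Ccna1, the cyclin of the meiotic divisions, read 2.34 and 17.1 and then 11.3 and 6.21 (0.04 ± 0.35), and the linker histone H1f6 read 21.8 and 7.10 and then 12.4 and 16.6 (0.08 ± 0.42). At any size, 28 of the 38 were higher and 2 lower past the p threshold. The lower ones were Nxf2 (-0.61 ± 0.11, adjusted p = 0.000379) and Cdc25c (-0.82 ± 0.26, adjusted p = 0.0376), with -0.21 from the other Cdc25c probe set.

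The piRNA pathway, which makes small RNAs that guard the germ line, had 3 of 22 called higher, 18 differences above 0 and a median of 0.62. Piwil1 (MIWI), the PIWI protein of pachytene, went from 27.4 and 28.0 on day 10 to 538 and 458 on day 14, or 18.0-fold (3.83 ± 0.17, adjusted p = 2.025e-12). Its paralogue Piwil2 (MILI) was already at 479 and 510 and reached 977 and 843 (0.87 ± 0.09, adjusted p = 4.80e-07), below 2-fold. The germ granule gene Tdrd5 (1.15 ± 0.18) and Gtsf1 (1.07 ± 0.10) were the other called members. The count was 5 without day 14 replicate 2 and 2 without day 10 replicate 1, where Tdrd5 gave 0.95. Piwil4 (MIWI2), the PIWI protein of fetal germ cells, read 32.4 and 30.1 and then 8.97 and 12.1 (-1.09 ± 0.46, adjusted p = 0.128).

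Isoforms that serve energy supply in germ cells had 12 of 23 called higher and none lower, with a median of 1.27. Without day 10 replicate 2 that median was 0.77. At any size, 1 member was lower past the p threshold. Besides Ldhc, Ldhal6b and Gk2, the subunits of cytochrome oxidase stood out: Cox8c rose from 82.2 and 107 to 879 and 739 (3.00 ± 0.13), with 0.96 from its other probe set. Cox7b2 rose from 226 and 239 to 1710 and 1608 (2.79 ± 0.17), and Cox6b2 from 197 and 222 to 1443 and 1119 (2.56 ± 0.11). Pdha2, the autosomal subunit of pyruvate dehydrogenase, rose from 50.4 and 41.8 to 774 and 654, or 15.5-fold (3.74 ± 0.18). Pgam2, a phosphoglycerate mutase, rose by 3.14 ± 0.16. Gapdhs, a glycolytic isoform of the sperm tail, read 18.2 and 16.5 and then 29.1 and 30.0 (0.57 ± 0.20, adjusted p = 0.0578), and Pgk2, although called, read 0.327 and 5.93 and then 21.8 and 33.4 (1.72 ± 0.33). The Pgk2 call was lost with a constant at the 40th percentile. The 15 somatic isoforms on the matching list had no call and a median of -0.15. With 4.0% of all genes tested called higher and 0.639% lower, 15 genes can hold no call.

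Genes of the cilium and its tail axoneme had 30 of 58 called higher, none lower, 53 differences above 0 and a median of 1.06. Dnah8, a heavy chain of the outer dynein arm in sperm, went from 54.9 and 44.7 on day 10 to 1013 and 857 on day 14, or 18.8-fold (4.03 ± 0.13), and the mean over its probe sets gave 2.20. Rsph1, a radial spoke protein, went from 107 on both arrays to 1892 and 1568, or 16.2-fold (3.92 ± 0.12, adjusted p = 1.14e-14). Both had separate arrays and are genes of motile cilia. Of the 13 tested members named Ift, which carry cargo along the axoneme, 6 were called higher, by 1.01 to 1.43. In the promoter table, 49 of 57 tested cilium genes outside chromosome 18 had a window, and 36.7% of these windows held the RFX motif.

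Genes of the acrosome and of sperm-egg contact had 17 of 38 called higher and none lower, with a median of 0.88. Fabp9, Crisp2, Adam2 and Dkkl1, given above, led the list. Acrv1 (SP-10), an acrosomal protein of round spermatids, read 9.16 and 9.90 on day 10 and 5.98 and 6.496 on day 14 (-0.30 ± 0.36, adjusted p = 0.669). Genes of elongating spermatids had 7 of 39 called higher, 1 lower and a median of 0.10, and their levels remained low. Odf4, an outer dense fibre protein, read 8.99 and 1.29 and then 75.4 and 47.5 (2.45 ± 0.29), Hspb9 reached 27.9 and 38.2, and Spata3 32.3 and 25.9 with -0.43 and 0.60 from its other probe sets.

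The defining spermatid genes read low on day 14. On the day 14 arrays Tnp2 read 0.739 and 1.20, Odf1 10.0 and 7.32, Prm2 20.0 and 2.79 and Prm1 19.2 and 24.6. The single fall in the list, Tnp1 (-1.01 ± 0.28), was between 12.5 and 18.2 on day 10 and 6.28 and 1.44 on day 14, and it was lost without day 10 replicate 2, without day 14 replicate 2 and with a constant at the 40th percentile. All of these values lay below the array medians.

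Autosomal copies of X-linked genes, which can stand in for their parents while the X is silent, were compared with those parents. Of 10 tested retrogenes 5 were called higher and none lower, with a median of 1.17. Of 8 tested X-linked parents none was called and 7 differences were below 0, with a median of -0.24. At the shares called among all genes tested, 4.0% higher and 0.639% lower, 8 genes can hold no call. Pdha2 rose by 3.74 while its parent Pdha1 read 297 and 328 and then 287 and 337 (-0.00 ± 0.15). Cetn1 rose by 4.58 against -0.32 ± 0.11 for Cetn2, and Pgk2 by 1.72 against -0.11 ± 0.12 for Pgk1, which stayed at 659 and 738. Tktl2 rose by 1.35 ± 0.31 against -0.22 ± 0.20 for Tktl1, and its call was lost without day 10 replicate 2 and without day 14 replicate 1.

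Other copies differed less. Rpl39l differed by 0.98 ± 0.08 against 0.12 ± 0.21 for Rpl39, Cstf2t by 0.29 ± 0.07 against -0.46 ± 0.11 for Cstf2, and Utp14b by -0.02 ± 0.18 against -0.27 ± 0.15 for Utp14a. For Rpl39l, Cstf2t and Cstf2 the difference passed the p threshold but not 2-fold. Testis and somatic isoforms of energy enzymes were set side by side in the same way. Ldhc rose by 6.39 and Ldhal6b by 5.78, while the somatic forms differed by 0.76 ± 0.09 for Ldha and -0.34 ± 0.07 for Ldhb. Cox8c rose by 3.00 against -0.54 ± 0.08 for Cox8a, and Cox6b2 by 2.56 against -0.25 ± 0.08 for Cox6b1. Slc25a31 was not called (0.24 ± 0.10, adjusted p = 0.111), and neither was its partner Slc25a4 (0.00 ± 0.12). The difference between the members of a pair was not tested.

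**Figure D4:**
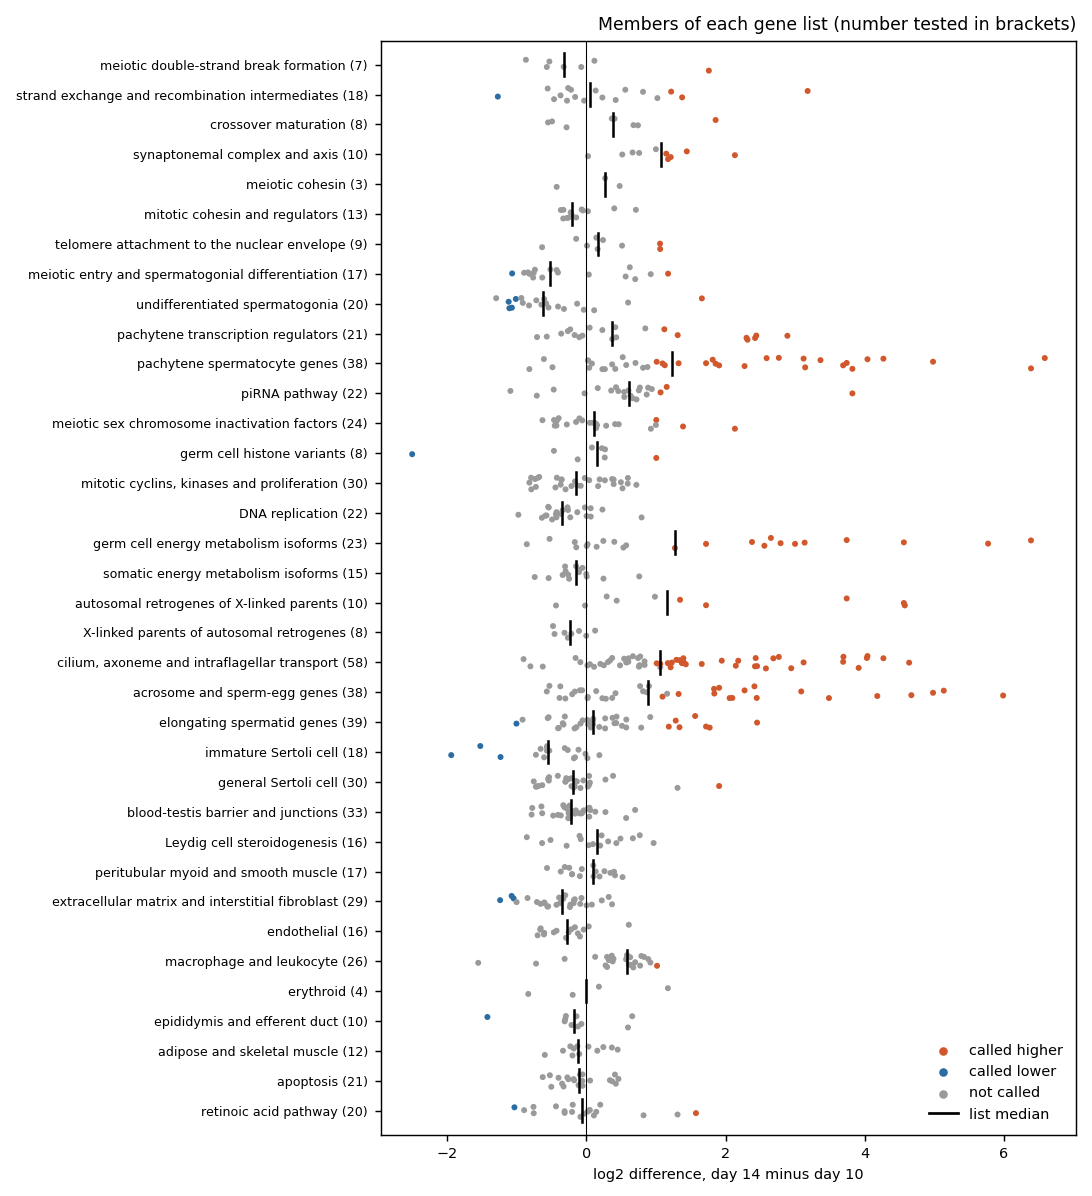
Log2 difference (day 14 minus day 10) of each tested member of 36 gene lists, with called rises in orange, called falls in blue, other members in grey and the list median as a black bar. Germ cell energy isoforms, pachytene genes, cilium, acrosome and synaptonemal lists have medians between 0.88 and 1.27, while immature Sertoli and undifferentiated spermatogonial lists lie below 0.

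X-linked genes shared little in the rise. Of 559 tested X-linked genes 5 were called higher (0.894%) and 2 lower (0.358%), against 4.11% and 0.655% of 15735 autosomal genes. The median X-linked difference was -0.18 and the autosomal one -0.03, and 70.5% of X-linked genes lay below 0 against 53.6% of autosomal ones. With no minimum size, 11.4% of X-linked genes were lower and 2.68% higher, against 6.10% and 9.59% of autosomal genes. The shift was small per gene and spread over many. The counts of called genes rest on single arrays: higher calls were 2 without day 10 replicate 1 and 3 without day 14 replicate 2, and lower calls were 7 without day 14 replicate 2.

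Array by array, the median X-linked log2 intensity exceeded the autosomal median by 0.434 and 0.355 on day 10 and by 0.119 and 0.1995 on day 14. Both day 14 arrays lay below both day 10 arrays and also below those of day 8, at 0.405 and 0.333. The mean went from 0.394 ± 0.056 to 0.159 ± 0.057 (SD, n = 2), an exact two-sided permutation test gave p = 0.333, and this is the smallest value that 2 against 2 arrays can give. On day 18 the same measure was -0.407 and -0.404.

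**Figure D5:**
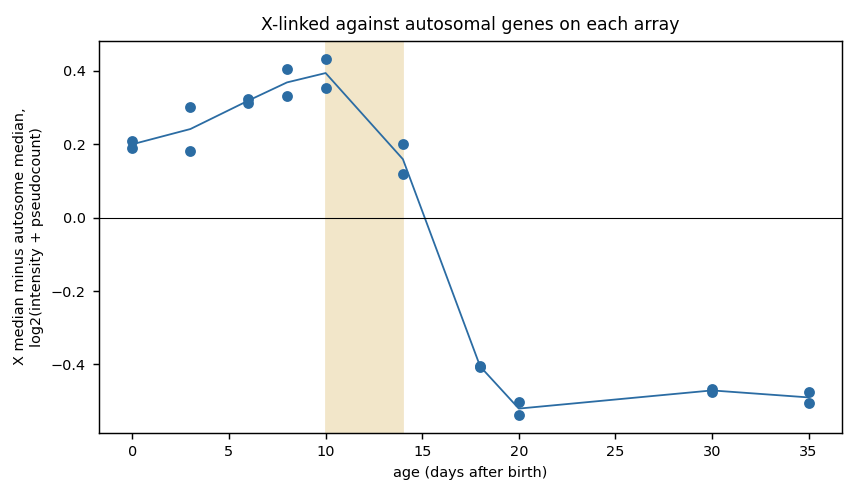
Median log2(intensity + 7.83) of X-linked genes minus that of autosomal genes on each array (points) with the mean of each age (line), the interval from day 10 to day 14 shaded. The value falls from 0.394 to 0.159 over that interval and is below 0 from day 18 on.

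The X-linked calls were few enough to name. Tsx, a testis gene of the X-inactivation centre, rose from 200 and 190 to 792 and 716 (1.91 ± 0.13, adjusted p = 1.41e-09). Cybb, a phagocyte oxidase subunit, rose from 36.7 and 52.0 to 98.3 and 119 (1.17 ± 0.31), and its call was lost without day 10 replicate 1 and without day 14 replicate 2. Srpk3 rose by 1.49 ± 0.40 at 34.2 and 17.3 on day 14, with -0.38 and 0.15 from its other probe sets, and its call was lost without either replicate 1. Gm9112 (2.14) and 1700011M02Rik (1.06) are predicted or clone genes, named after their values were seen. Bex2 fell from 1441 and 1347 to 548 and 511 (-1.38 ± 0.11, adjusted p = 1.34e-08), and Agtr2, the type 2 angiotensin receptor, fell from 83.5 and 72.8 to 20.0 and 34.8 (-1.32 ± 0.33), a call lost without day 10 replicate 1 and without day 14 replicate 1.

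Factors of meiotic sex chromosome silencing had 3 of 24 called higher and a median of 0.11. Besides Hormad1, Mdc1, which spreads the silencing signal into chromatin, rose from 125 and 109 to 312 and 325 (1.39 ± 0.13). H2ax, the histone that is phosphorylated over the silenced chromosomes, rose from 553 and 601 to 1279 and 1059 (1.004 ± 0.09), right at the 2-fold limit, so that leaving out day 10 replicate 1 or day 14 replicate 1 ended the call.

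Among 20 genes of undifferentiated spermatogonia, 4 were called lower and 1 higher, 17 differences were below 0 and the median was -0.63. Zbtb16 (PLZF), the transcription factor of undifferentiated spermatogonia, fell from 356 and 358 to 171 and 150 (-1.12 ± 0.18), and its other probe sets gave -0.67 and -1.45. Sdc4 fell from 325 and 311 to 147 and 140 (-1.11 ± 0.18), but its other probe set gave 0.07. Lin28a (-1.02 ± 0.21) and Glis3 (-1.07 ± 0.29) were the other falls. The number of falls was 2 without day 14 replicate 2.

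Not every gene of that list was called lower. Id4, an inhibitor of differentiation used as a stem cell marker, rose from 162 and 214 to 664 and 553 (1.66 ± 0.11, adjusted p = 1.735e-09), and its other probe sets gave 1.37 and 1.66. Gfra1, the GDNF receptor, read 57.8 and 52.8 and then 35.6 and 21.3 (-0.83 ± 0.28, adjusted p = 0.0563). Its other probe sets gave -1.13 ± 0.43 and -1.43 ± 0.32, the latter at an adjusted p of 0.00540. The mean over all Gfra1 probe sets was called lower (-1.13). Neurog3, a marker of progenitors, read 90.4 and 86.0 and then 34.7 and 27.9 (-1.30 ± 0.44, adjusted p = 0.0527), just outside the threshold and inside it under 7 of the alternatives. The 2 ages did not overlap for either gene.

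Genes of spermatogonial differentiation and meiotic entry had 1 of 17 called lower and 1 higher, with a median of -0.52. Stra8, the retinoic acid target that starts meiosis, read 1159 and 1098 on day 10 and 689 and 568 on day 14, that is 0.557 times the day 10 level (-0.84 ± 0.11, adjusted p = 1.48e-05), short of the 2-fold limit. Sohlh1, a bHLH factor of differentiating spermatogonia, fell from 239 and 235 to 120 and 99.0 (-1.07 ± 0.33, adjusted p = 0.0328), a call lost when any 1 of the 4 arrays was left out, with values between -0.94 and -1.20. The higher gene was Sycp3. Kit, the receptor of differentiating spermatogonia, was not called (-0.52 ± 0.36), while Meioc, which holds cells in meiotic prophase, differed by 0.92 ± 0.13 (adjusted p = 3.22e-05), under 2-fold.

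None of 30 mitotic cyclins, kinases and related genes was called, with a median of -0.15. Nor was any of 22 DNA replication genes, of which 17 lay below 0 with a median of -0.35. Over all genes tested, 4.0% were called higher and 0.639% lower, so lists this short can hold no call. Cdt1, the licensing factor, came nearest, from 682 and 736 to 367 and 344 (-0.98 ± 0.10, adjusted p = 5.28e-07), and it passed 2-fold under quantile normalization, under a common median and without either replicate 1. Ccnd2, a spermatogonial cyclin, differed by -0.74 ± 0.10, and Ccna2 by -0.68 ± 0.10. Of the 30 cyclin and kinase genes, 7 were higher and 9 lower past the p threshold at any size. Those higher include Cdk1, the mitotic kinase (0.60 ± 0.07), Aurka (0.59 ± 0.09) and Ccnb2 (0.39 ± 0.09). Mki67, a general proliferation marker, read 823 and 754 and then 669 and 609 (-0.30 ± 0.12, adjusted p = 0.0935). Gins1, a replication helicase subunit, went the other way (0.79 ± 0.11, adjusted p = 3.71e-05).

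Sertoli cells, the nurse cells of the tubule, showed falls in the immature set. Of 18 genes that mark the immature state, 3 were called lower and none higher, 16 differences lay below 0 and the median was -0.55. Hsd17b1, an oestrogen-forming enzyme, fell from 71.9 and 77.1 to 11.6 and 15.7 (-1.95 ± 0.33, adjusted p = 0.000265). Amh, the anti-Müllerian hormone whose level drops as Sertoli cells mature, fell from 92.8 and 97.4 to 17.1 and 43.4 (-1.53 ± 0.28, adjusted p = 0.000545), with -1.01 without day 14 replicate 1. Dhh, the hedgehog ligand that Sertoli cells send to Leydig and myoid cells, fell from 1037 and 1061 to 414 and 470 (-1.24 ± 0.10, adjusted p = 8.90e-09), while its other probe set gave -0.44.

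General Sertoli genes had 1 of 30 called, Tsx, with a median of -0.20. Over all genes tested, 4.0% were called higher and 0.639% lower. The defining transcription factors were lower by less than 2-fold: Sox9 read 397 and 417 and then 297 and 260 (-0.54 ± 0.16), and Gata4 309 and 326 and then 234 and 198 (-0.54 ± 0.17). Rhox5, an androgen-driven homeobox gene of Sertoli cells, read 736 and 673 and then 541 and 514 (-0.41 ± 0.13, adjusted p = 0.0295). Fshr, the receptor for follicle-stimulating hormone, was not called (-0.18 ± 0.26). None of 33 genes of the blood-testis barrier was called, and Cldn11, its main claudin, read 1001 and 1046 and then 1059 and 1181 (0.13 ± 0.13, adjusted p = 0.600).

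Other somatic lists showed few calls. Of all genes tested, 4.0% were called higher and 0.639% lower, and at such shares lists this short can hold no call. The summed intensity of 16 Leydig genes was 7861 and 8031 on day 10 and 8203 and 9637 on day 14, with no call. Star, the cholesterol carrier, differed by 0.49 ± 0.19, Cyp17a1 by -0.64 ± 0.12 and Hsd17b3 by -0.86 ± 0.13, the last 2 past the p threshold. Nr4a1, a nuclear receptor (0.97 ± 0.15), Vcam1 (0.77 ± 0.19), Ephx1 (0.67 ± 0.12) and Fdx1, which passes electrons to steroidogenic enzymes (0.31 ± 0.09), were higher past the p threshold and under 2-fold. None of 17 myoid genes was called, and Acta2 differed by -0.07 ± 0.08. None of 16 endothelial genes was called, and their sum went from 1109 and 1160 to 873 and 932.

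The matrix and fibroblast list had 3 of 29 called lower, 24 below 0 and a median of -0.35. These were Dlk1 (-1.24 ± 0.37) and Plagl1 (-1.08 ± 0.11), imprinted growth genes of fetal and neonatal tissue, and the matrix gene Postn (-1.05 ± 0.15). All 3 calls were lost without day 14 replicate 1, those of Dlk1 and Postn also without day 10 replicate 2, and that of Dlk1 also without day 10 replicate 1. The Dlk1 call was further lost under quantile normalization, with the constant at the 5th percentile, with the floor, with the mean of all probe sets and with no trend, at adjusted p between 0.0539 and 0.112. The 26 macrophage and leukocyte genes lay mostly above 0 (23 of 26, median 0.58), and their sum went from 3036 and 3005 to 4157 and 5202. Whether macrophages entered other results was not tested. Lyz2, the macrophage lysozyme, was called, from 327 and 290 to 532 and 747 (1.01 ± 0.16), at the 2-fold limit and lost without day 10 replicate 2 or day 14 replicate 2, and Cd68 was not (0.57 ± 0.21, adjusted p = 0.0843).

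Lists of other tissues held 1 call in all, where 4.0% of all genes tested were called higher and 0.639% lower. The erythroid list had no call, and Hba-a1 read 0.591 and 0.575 and then 10.7 and 11.5. Adipose and skeletal muscle had no call among 12, with Fabp4 at 22.5 and 10.9 on day 14. The epididymal list had 1 of 10 called, Defb42, which fell from 30.5 and 24.6 to 1.34 and 10.95, a call lost without either replicate 1. None of 21 apoptosis genes was called, with a median of -0.11. Of 20 retinoic acid genes, Rdh11, a retinal reductase, rose from 93.9 and 82.2 to 260 and 296 (1.57 ± 0.16), and Stra6, the retinol importer, fell by 1.04 (SE 0.28), a call lost without 3 of the 4 arrays in turn.

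The falls were smaller than the rises. In 27 of the 105 falls the day 14 mean lay under the constant of 7.83, and the median intensity went from 78.2 to 27.4. H3f3b, a gene for the replacement histone H3.3, gave the largest value, from 179 and 177 to 31.1 and 19.6 (-2.51 ± 0.28, adjusted p = 1.67e-06). This came from the 1 probe set specific to its symbol. The 5 probe sets shared with H3f3a and related copies gave -0.06 to 0.13, so the value holds for that probe set and not for H3.3 transcripts as a whole.

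Pot1b, a telomere end-binding protein, read 36.4 and 43.7 and then 4.07 and 3.59 (-2.03 ± 0.40), and Tet3, a methylcytosine dioxygenase, 35.9 and 44.0 and then 3.47 and 5.07 (-1.98 ± 0.41). Better measured were Sel1l3, from 224 on both arrays to 46.9 and 58.1 (-1.95 ± 0.26, adjusted p = 1.60e-05), and Tnfrsf12a, the TWEAK receptor, from 201 and 197 to 52.6 and 72.4 (-1.57 ± 0.29), with -2.09 from its other probe set. Ins2, an insulin gene, read 98.8 and 101 and then 21.97 and 30.9 (-1.67 ± 0.34), and Cadps, a secretory granule protein, 92.8 and 98.1 and then 23.7 and 23.0 (-1.73 ± 0.34). With every value below 34.6, the pooled median, raised to it, Pot1b and Tet3 differed by -0.21 and -0.20 and were not called.

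Among the rest of the 15 named falls, Golga7b (-1.91) and Lpcat2 (-1.75) had other probe sets at 0.29 and 0.06. Plppr3 (-1.85), Hps6 (-1.77), Fgl1 (-1.74), Nudt17 (-1.66) and Adssl1 (-1.54) ended between 0.806 and 16.7 on day 14. The Fgl1 call was lost when any 1 of the 4 arrays was left out, Nudt17 without day 14 replicate 1, Golga7b without day 10 replicate 2 or day 14 replicate 1, and Adssl1 without either replicate 1. With the same floor at 34.6 the differences of Fgl1, Plppr3 and Adssl1 were 0, and those of Hps6 (-0.10), Golga7b (-0.30) and Nudt17 (-0.63) were under 2-fold. Hps6 and Plppr3 kept their calls without each of the 4 arrays.

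The interval was next set against its neighbours in the same fit, with the day 10 arrays shared by 1 pair of steps and the day 14 arrays by the other. Relative to the step from day 8 to day 10, which is 2 days shorter, the log2 change from day 10 to 14 was greater for 435 genes (2.65%) and smaller for 74 (0.450%). Pachytene genes gave 17 of 38 greater, the cilium list 23 of 58 and germ cell energy isoforms 11 of 23. The synaptonemal list gave 0 of 10, which a list of 10 can give at the 2.65% of all genes. Sycp3, for example, changed by 1.14 from day 8 to 10 and by 1.17 from day 10 to 14, and the difference of these changes was 0.04 (adjusted p = 0.959). Piwil1 changed by 0.00 and then by 3.83 (difference 3.82, adjusted p = 3.96e-08), and Brdt by 0.26 and then 2.42 (adjusted p = 7.49e-05). Sycp1 likewise changed by 1.38 and then 1.21.

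Stra8 turned within these 6 days, from 0.67 to -0.84 (difference -1.51, adjusted p = 3.44e-05), and Rhox5 from 2.20 to -0.41 (-2.61, adjusted p = 1.31e-07). On the probe set used, Dmc1 went from 1.44 to 0.13 (-1.30, adjusted p = 0.0196). Its other probe set, at 0.77 for the later step, was not compared between steps. Meiob went from 1.84 to 3.18 without a detectable difference between the steps (adjusted p = 0.124). The difference between Dmc1 and Meiob was not tested.

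Relative to the step from day 14 to 18, the change was greater for 475 genes (2.89%) and smaller for 710 (4.32%). The synaptonemal list gave 5 of 10 greater and none smaller. Sycp1 changed by 1.21 and then by -0.26 (difference 1.47, adjusted p = 0.000325), and Meiob by 3.18 and then by -0.93 (4.11, adjusted p = 1.42e-05). The cilium list gave 7 of 58 greater and 14 smaller, and elongating spermatid genes 0 greater and 7 of 39 smaller. The lowest values of the arrays also change between these ages: the median bacterial control was 1.21 to 1.43 on days 10 and 14 and 5.86 and 6.10 on day 18, and its part in these differences was not tested. Of the day 18 arrays, 1 carries a second label that names day 0 and was used under its title, and without it the count of both directions was 937. That count was 1185 with all arrays, 741 without day 14 replicate 1 and 620 without day 14 replicate 2.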

How the data were processed

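Single-channel 3' expression arrays measured total RNA of whole mouse testis, 2 arrays at each of 10 ages. The deposited intensity values are linear, with 1 value per probe set and array, and how probes were summarised was not stated in the labels used here. All 20 columns of values were used and 0 were left out. Of 45101 probe sets, 64 were controls, 34945 had 1 gene symbol, 932 several and 9160 none. Where a gene had several single-symbol probe sets, the one of highest mean log2 value stood for it. Genes above the 40th percentile of an array on at least 2 arrays were tested, 16429 of 18193. Values were taken as log2(intensity + 7.83) and fitted with day as a factor over all 20 arrays in limma 3.58.1 (R 4.3.3; lmFit, eBayes with trend, 10 residual and 8.88 prior degrees of freedom), and p-values were adjusted by Benjamini-Hochberg over all genes tested. Python 3.11.15 and matplotlib 3.10.9 made the tables and figures. With 2 arrays per age, their number limits the precision.

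The genes named by rule were the 15 largest rises and 15 largest falls among calls whose arrays did not overlap, without clone-type symbols, a set of benchmark genes, the 4 tested members of each list with the largest absolute difference, the isoform and retrogene pairs, and the 5 largest X-linked rises and falls among calls; further list members were named after their values were seen. The members and lists were chosen with earlier results of these data known. In a check on simulated data for this comparison, over 16429 genes, 28% of 50 genes changed by 1 on the log2 scale were called, 80% at 1.5, 92% at 2 and 98% at 3, with 4 calls among unchanged genes. Replicate numbers did not pair the samples: deviations of same-numbered arrays correlated between -0.0249 and 0.0561 over 45 pairs of ages.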

Additional observations from a re-analysis of the deposited data

Results flagged for a closer look

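Probe sets that the annotation gives no gene symbol stood outside the comparisons of genes. Fitted in the same way, 85 of 6251 tested were higher on day 14 (1.36%) and 27 lower (0.432%). They drew attention as signal in data that the gene results do not use. Probe sets with several symbols gave 27 higher and 3 lower of 800.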

How the results depend on the processing

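Calls near 2-fold and at low intensity were the least stable. The 657 higher calls were 359 with a minimum log2 difference of 1.5 and 1530 with none, and 554 to 639 when 1 of the 4 arrays was left out. The 105 lower calls were 47 with the constant at the 40th percentile, 56 at an adjusted p under 0.01, 21 with a minimum of 1.5 and 1027 with none, and 68 to 103 over the arrays left out. The 5 higher X-linked calls were 3 with the constant at the 40th percentile, 2 with the mean of all probe sets, 3 at an adjusted p under 0.01, 2 with a minimum of 1.5 and 15 with none, and 2 to 6 over the arrays left out. The 2 lower ones were 4 under a common median, 0 with a minimum of 1.5 and 64 with none, and 2 to 7 over the arrays left out. The 509 genes that differed from the step before were 848 with no minimum and 346 to 476 over the arrays left out. The 1185 that differed from the step after were 639 at an adjusted p under 0.01, 646 with a minimum of 1.5, 2221 with none and 620 to 971 over the arrays left out; the fit of days up to 14 alone gives no value here. The causes were not tested, apart from the thresholds, which change the count by construction. With the replicate number as a block 756 genes were called, 750 of them shared with the 762 of the fit without it. Of 86 named genes called, a sizeable share lost the call without at least 1 of the 4 arrays. None of 211 named genes changed sign under any of the 21 alternatives where it was called there or in the main fit. Sign changes of genes called in neither were not counted. Of all 762 calls, too, a sizeable share was lost in at least 1 of the fits without 1 of the 4 arrays or without day 18 replicate 2. The other arrays of the series were never left out singly. They were dropped by whole ages in the fit of days up to 14 and in the fit of the compared days alone.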
